A study of Caenorhabditis elegans with 2 samples.

Results

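Homeobox transcription factor genes were examined in chromatin immunoprecipitation sequencing (ChIP-seq) lists made from whole Caenorhabditis elegans larvae. The members were the protein-coding genes of the Ensembl WBcel235 annotation whose symbol is ceh- followed by a number, together with 26 further named homeobox genes such as unc-42, lin-39 and vab-3. This rule found 89 genes among 19973 protein-coding genes. It used gene symbols and no measured value. A region belonged to a gene when its summit, the position of highest signal, lay between 2000 bp upstream of a transcript start and the gene end. This span is called the window.

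Both libraries came from 1 group, fourth-stage (L4) larvae with male and female animals pooled. Per the labels, strain OP337 carries unc119(ed3) and the integrated construct wgIs377, in which fkh-10 is fused to TY1, EGFP and FLAG and is accompanied by unc119. There were 2 biological replicates, with selected fragments of 150 to 350 bp, and no other genotype or condition. The sources used here do not give what drives the construct or in which cells the tagged protein was present.

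Homeobox genes encode DNA-binding proteins with a helix-turn-helix homeodomain. In nematodes they pattern the body axis, as the Hox genes do, and fix the identity of single neuron types, as many LIM, POU and paired-type members do. FKH-10, the tagged protein, is a forkhead factor of a different class and binds DNA through a winged helix.

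The authors deposited 2253 IDR regions on the ce11 build, a list made from both replicates and thresholded by irreproducible discovery rate. They also deposited relaxed lists, background included, with 19381 regions in the pooled one, 30000 in that of replicate 1 and 28886 in that of replicate 2. Each region has the authors' signal, an enrichment over a control library on an unstated scale. The scale differs between lists, so values were read against the median of their own list, which was 59.2 for IDR, 17.3 for pooled, 9.08 for replicate 1 and 8.51 for replicate 2. Read depth is unknown. Of the construct genes, fkh-10 had 0 regions in its window in each of the 4 lists, and unc-119 had 1 IDR region with a signal of 77. The fkh-10 locus therefore gives no check of the label, and the libraries are those labelled FKH-10.

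The sequences under 5 of the 10 IDR regions at homeobox genes are shown. They are the 5 strongest that lie clear of annotated untranslated regions. Each is 201 bases around the summit, from the plus strand of the RefSeq WBcel235 genome, written 5′ to 3′. Capitals mark the single match to the motifs searched for, TTATCA, which is the GATA factor site TGATAA on the other strand. The windows lie at chrV:9765680-9765880 and chrV:9769538-9769738 (unc-42), chrV:11704777-11704977 (ceh-32), chrX:3871662-3871862 (lim-4) and chrX:1856266-1856466 (ceh-39).
unc-42 intron: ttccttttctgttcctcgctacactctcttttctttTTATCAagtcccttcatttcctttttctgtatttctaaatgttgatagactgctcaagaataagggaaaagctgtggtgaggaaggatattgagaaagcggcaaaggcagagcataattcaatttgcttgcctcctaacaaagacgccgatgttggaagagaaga
unc-42 upstream: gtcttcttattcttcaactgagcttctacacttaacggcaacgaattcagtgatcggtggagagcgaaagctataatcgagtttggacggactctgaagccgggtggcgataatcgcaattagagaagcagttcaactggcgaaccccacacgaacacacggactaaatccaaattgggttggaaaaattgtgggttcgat
ceh-32 intron: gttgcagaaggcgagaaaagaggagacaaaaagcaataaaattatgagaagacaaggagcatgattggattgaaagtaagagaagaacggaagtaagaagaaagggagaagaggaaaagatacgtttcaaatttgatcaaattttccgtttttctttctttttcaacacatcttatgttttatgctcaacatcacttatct
lim-4 intron: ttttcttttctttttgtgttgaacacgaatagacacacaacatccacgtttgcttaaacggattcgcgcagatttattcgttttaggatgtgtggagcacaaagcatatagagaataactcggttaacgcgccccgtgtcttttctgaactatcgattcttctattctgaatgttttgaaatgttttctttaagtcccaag
ceh-39 upstream: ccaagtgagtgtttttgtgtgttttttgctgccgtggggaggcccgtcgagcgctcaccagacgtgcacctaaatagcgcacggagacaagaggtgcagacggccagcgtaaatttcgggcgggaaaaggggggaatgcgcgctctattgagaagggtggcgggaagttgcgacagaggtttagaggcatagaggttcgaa
The ceh-39 window was the richest in G and C of the 10, at 56.2%, and the ceh-32 window the poorest, at 33.8%.

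Few homeobox genes had an IDR region. An IDR region lay in the window of 8 of 89 (8.99%, 95% Wilson interval 4.63 to 16.7), against 10.6% of all protein-coding genes, a background share inside that interval. The 8 were unc-42, ceh-38, ceh-32, lim-4, ceh-5, ceh-27, ceh-39 and unc-62. They held 10 regions, 3 of them at unc-42. Each of the 10 had a summit within 100 bp in both replicates, as had 2013 of all 2253 IDR regions. Counting only such doubly matched IDR regions, the share was again 8.99% of homeobox genes, against 9.72% of all genes. Within a promoter, from 1000 bp upstream to 200 bp downstream of a start, it was 4 of 89 (4.49%), against 6.98%. The density was 18.3 regions per Mb of member windows (exact Poisson interval 8.8 to 33.7) and 22.1 per Mb over all protein-coding windows. These intervals cover counting error only.

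**Figure D1:**
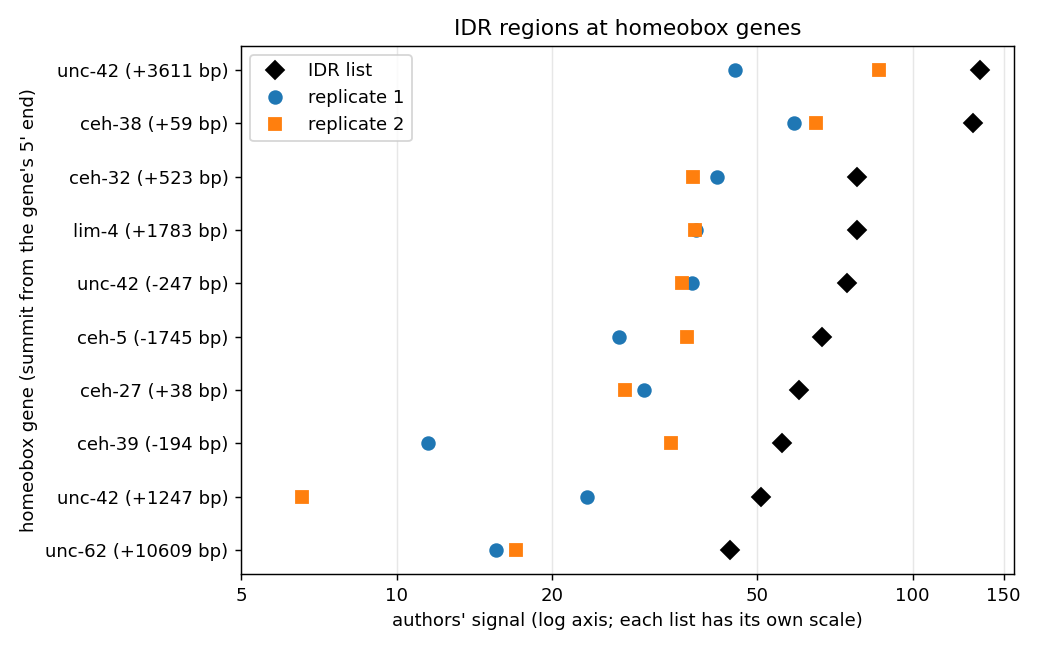
Authors' signal (log axis) of the 10 IDR regions at homeobox genes, 1 row per region with the summit's distance from the 5′ end of the gene; diamonds are the IDR list, circles replicate 1 and squares replicate 2. Signals in the IDR list ran from 135 at unc-42 to 44.3 at unc-62, and the replicates lay furthest apart at ceh-39 and at the unc-42 region 1247 bp into the gene.

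unc-42 (WBGene00006778, chromosome V, 9764534 to 9769391, minus strand) stood first. It encodes a paired-type homeodomain protein that specifies interneurons and motor neurons. Its strongest region (9765585 to 9765974) had its summit in an intron, 3611 bp from the 5′ end of the gene and 790 bp upstream of the nearest of 5 annotated starts. The IDR signal there was 135, rank 56 of 2253. The replicate signals were 45.3 in replicate 1 (rank 218 of 30000) and 86.2 in replicate 2 (rank 36 of 28886), so the site was among the strongest of either library.

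A second unc-42 region (9769443 to 9769832) lay 247 bp upstream of the gene, with an IDR signal of 74.7. Replicates 1 and 2 had signals of 37.4 and 35.8 there, nearly level. The remaining one (9767949 to 9768338), in an intron 1247 bp from the 5′ end, had an IDR signal of 50.9 but 23.4 in replicate 1 and 6.57 in replicate 2. In replicate 2 it ranked 22882, below that list's median, so it rested mainly on replicate 1. Replicate 2 also had summits at unc-42 with signals of 29.1 and 16.2, at 440 and 239 bp from the 5′ end. Between these, at 339 bp, replicate 1 had 7.24.

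The CUT class, with a cut domain beside the homeodomain, had 2 of 6 members with an IDR region, against 10.6% of all genes. The ceh-38 region (WBGene00000459, chromosome II, 6951390 to 6951779) had an IDR signal of 131, rank 62, and signals of 58.8 and 64.9 in replicates 1 and 2. Its summit lay 59 bp inside the gene, in a 5′ untranslated exon. It also lay 285 bp upstream of malt-1, the paracaspase gene next to it. The region is counted at ceh-38 here, and whether it belongs to ceh-38 or malt-1 was not tested. At ceh-39 (WBGene00000460, chromosome X, 1856171 to 1856560), an X-linked gene that takes part in the counting of X chromosomes in sex determination, the summit was 194 bp upstream. The IDR signal was 55.7, with 11.5 in replicate 1 (rank 8037) and 34 in replicate 2 (rank 1163), a site of much higher rank in replicate 2.

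Of the sine oculis class, ceh-32 alone of 3 members had an IDR region, where 10.6% of all genes had one. ceh-32 encodes a homeodomain protein of head development (WBGene00000453). Its region (chromosome V, 11704682 to 11705071) lay in an intron 523 bp from the start, with an IDR signal of 78.1 and replicate signals of 41.8 and 37.6. The noncoding gene W05E10.8 lay within 200 bp of that summit. Noncoding genes lay as near to the upstream unc-42 (F46B6.18), ceh-27 (F46F3.22) and ceh-39 (T26C11.10) IDR summits. ceh-33 and ceh-34, the other members of the class, had no IDR region, and the strongest pooled signal at ceh-34 was 12.8, the floor of that list.

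Of 7 LIM members, which carry LIM zinc-binding domains beside the homeodomain, only lim-4 had an IDR region, against 10.6% of all genes. lim-4 (WBGene00002987) sets the identity of an olfactory neuron. The region (chromosome X, 3871567 to 3871956) lay in an intron, 1783 bp from the 5′ end. Its IDR signal was 78 and its replicate signals were 38 and 37.8 in replicates 1 and 2. mec-3, which specifies touch neurons, ttx-3 and ceh-14 had none, and in the pooled list mec-3 had 1 region and ttx-3 and ceh-14 had 0. lin-11, lim-6 and lim-7 had no IDR region but 3, 3 and 1 pooled regions, with signals of at most 37.8, 28.6 and 14.1.

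Of 23 Antennapedia-like members, ceh-5 and ceh-27 had an IDR region, where 10.6% of all genes had one. The ceh-27 summit (WBGene00000449, chromosome V, 11664869 to 11665258) was 38 bp inside the gene of this NK-2-type factor, with signals of 60.2 in the IDR list, 30.1 in replicate 1 and 27.7 in replicate 2. The ceh-5 summit (WBGene00000430, chromosome I, 9725229 to 9725618) was 1745 bp upstream, near the edge of the window, and inside the genes eat-16, a regulator of G protein signalling, and ocrl-1, an inositol phosphatase. Its signals were 66.8 in the IDR list, 27 in replicate 1 and 36.5 in replicate 2. Only ceh-27 of these had its region at its own start.

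unc-62 encodes the Meis-type partner of Hox proteins (WBGene00006796, 13989 bp long). It had the weakest of the 10 regions (chromosome V, 4507875 to 4508264), with an IDR signal of 44.3, rank 2001. The replicate signals were 15.6 and 17. The summit lay 10609 bp into the gene, in a 5′ untranslated exon 866 bp downstream of the nearest of 15 starts. ceh-20, ceh-40 and ceh-60, the PBC partners of Hox proteins, had no IDR region. The strongest pooled signals were 26.3 at ceh-20 and 21.3 at ceh-60, and ceh-40 had no pooled region.

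**Figure D2:**
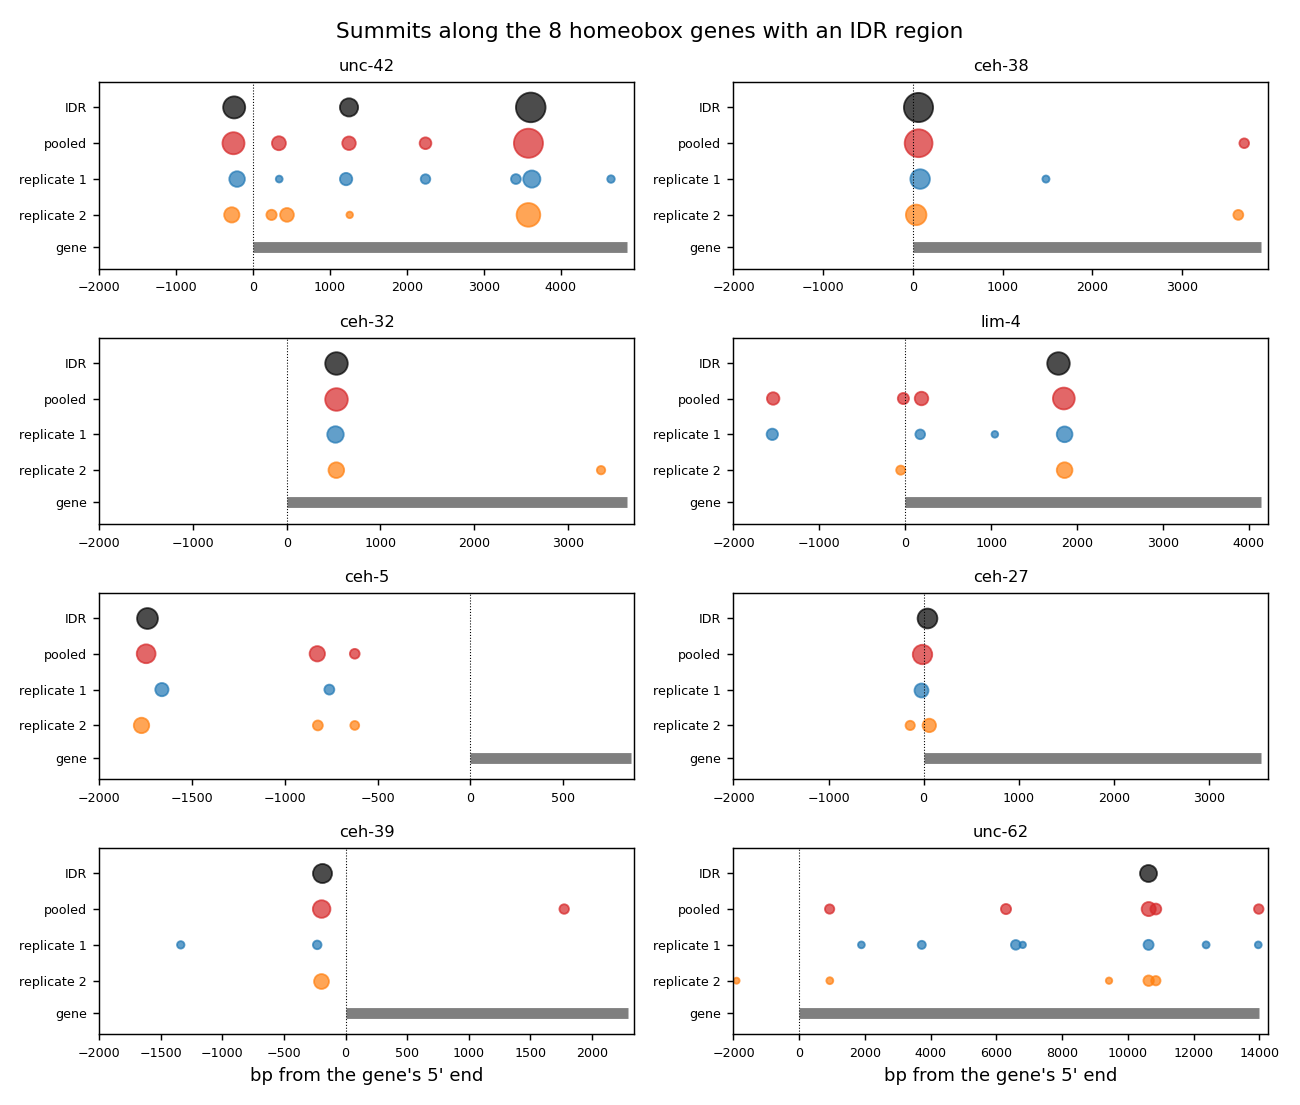
Summits along the 8 homeobox genes with an IDR region, in bp from the 5′ end of the gene (grey bar, drawn to scale within each panel), with 1 line of points for each deposited list; the area of a point is proportional to the signal as deposited, whose scale differs between lists. The 3 IDR summits of unc-42 lay 247 bp upstream and 1247 and 3611 bp inside the gene.

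The Hox genes, which pattern the body axis, had 0 IDR regions in 6 windows, where 10.6% of all genes had one, so that a count of 0 in 6 is near the background. The nearest IDR summit was 7.81 kb from lin-39, 12.5 kb from ceh-13, 31.2 kb from egl-5, 39 kb from nob-1, 45.7 kb from php-3 and 47.1 kb from mab-5. In the pooled list 4 of the 6 had regions, 7 in all, against 52.5% of all genes. The strongest was in an intron of lin-39, the midbody and vulval Hox gene, with a pooled signal of 23.1 and replicate signals of 10.3 and 14.6. The ceh-13 region, 827 bp upstream of this labial-type gene, had a pooled signal of 21 and a match in replicate 2 alone, at 13.9. At mab-5 the pooled signals were 18.6 and 14.5, and at egl-5 13.6 and 13.5, near the lowest value of the list. nob-1 had 3 regions in replicate 1, at most 10.4, and 0 in replicate 2. php-3 had none in any list.

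In the relaxed lists, which include background, more homeobox genes than genes in general had a region, by a margin that differed between lists. A pooled region lay in 50 of 89 windows (56.2%, interval 45.8 to 66), against 52.5% of all protein-coding genes. Replicate 1 had regions at 73 (82%, interval 72.8 to 88.6), against 70.1%, and replicate 2 at 62 (69.7%, interval 59.5 to 78.2), against 63.4%. The member windows were longer, with a median of 5339 bp against 4027 bp, and per base the order differed between lists. The density at homeobox genes was 176 per Mb (interval 143 to 215) against 192 in the pooled list, 341 (294 to 394) against 305 in replicate 1 and 272 (230 to 319) against 284 in replicate 2, each with the value over all genes inside the interval. Both replicate lists held a region at 57 members (64%, interval 53.7 to 73.2), against 51.1%, and at least 1 of the 4 lists at 79 (88.8%), against 82.7%. The share over all genes lay inside the members' interval for the pooled and replicate 2 lists, and below it for replicate 1 and for both replicate lists together.

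**Figure D3:**
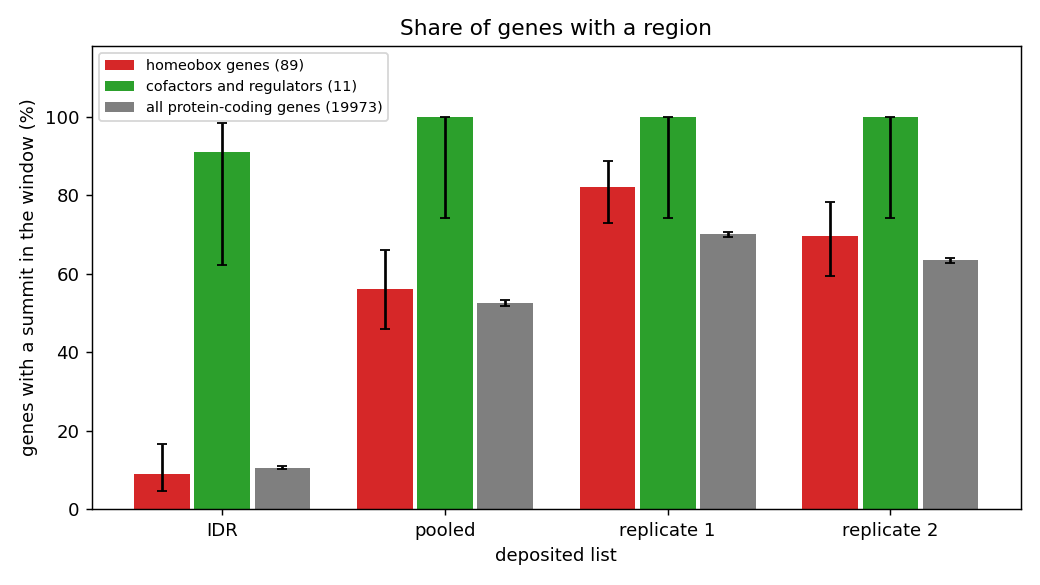
Percentage of genes with a summit in the window in each deposited list, for the 89 homeobox genes, 11 cofactor and regulator genes and all 19973 protein-coding genes; error bars are 95% Wilson intervals, which cover counting error only. In the IDR list homeobox genes were at 8.99%, cofactors and regulators at 90.9% and all genes at 10.6%. The cofactor and regulator list was chosen with earlier results of these data known.

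The 96 pooled regions at members were of ordinary strength. Their median signal was 16.8, against 17.3 over the pooled list, and 46 of 96 were above that median. An IDR summit lay within 100 bp of 10.4% of them, against 11.4% of the pooled regions in all protein-coding windows. Just outside the IDR list, the strongest were at ceh-89 (pooled signal 40.6), zag-1 (39.5), lin-11 (37.8) and ceh-5 (36.3). The weakest IDR region at a member, that of unc-62, had a pooled signal of 30.7. The unc-42 IDR region 1247 bp into the gene had 28.1, and both were below these 4.

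The sites just outside differed in how evenly the replicates held them. At zag-1, a zinc-finger homeobox gene of neuron and muscle differentiation, the region lay in coding sequence with signals of 35.6 in replicate 1 (rank 520) and 7 in replicate 2 (rank 20628). At lin-11, a LIM gene of vulval and neuronal development, the summit had 18.6 in replicate 2 and no match within 100 bp in replicate 1, which had a summit of 24 at 4420 bp from the start against 4549 bp. At ceh-89 the signals were 14.4 and 24 in replicates 1 and 2, and the summit lay 396 bp upstream of ceh-89, in a window shared with nkat-1. The second ceh-5 site had 15.3 and 15.2.

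The number of pooled regions varied from 0 at 39 members to 6 at ceh-100, and 26 members had 2 or more. ceh-100, the member with the longest window (23503 bp), had pooled signals from 12.8 to 17.9, all weak or ordinary. unc-42 and unc-62 had 5 each, and lim-4, ttx-1 and zag-1 had 4 each. Members with 2 or more pooled regions had a median window of 7384 bp, against 4637 bp for those with none. The 10 members with no region in any list were ceh-2, ceh-7, ceh-16, ceh-49, ceh-51, ceh-57, ceh-74, ceh-75, mls-2 and php-3, with a median window of 4355 bp. The window of unc-42, 6858 bp, held 3 IDR regions, while that of ceh-18, 16431 bp, held 2 pooled regions of at most 15.7.

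By class, where 52.5% of all genes had a pooled region and 10.6% an IDR region, pooled regions were found at 12 of 23 Antennapedia-like, 9 of 14 paired-type, 5 of 7 LIM, 4 of 6 CUT, 4 of 6 Hox, 3 of 4 PBC and Meis, 2 of 3 sine oculis and 2 of 3 POU members, and at zag-1. The 22 members given no class had 8 with a pooled region and 0 with an IDR region. Of the POU genes, unc-86, a selector of sensory neuron identity, had no pooled region, while ceh-6 had a pooled signal of 13.3 and ceh-18 of 15.7. Among the paired-type genes other than unc-42, the strongest pooled signals were 24.3 at ceh-37, 19.9 at ttx-1 and 19.2 at alr-1. vab-3, the Pax6 gene, had 17.9. Of the IDR regions 6 lay on chromosome V, 3 of them at unc-42. That chromosome holds 15 of the 89 members, and its share of all IDR regions was not computed.

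**Figure D4:**
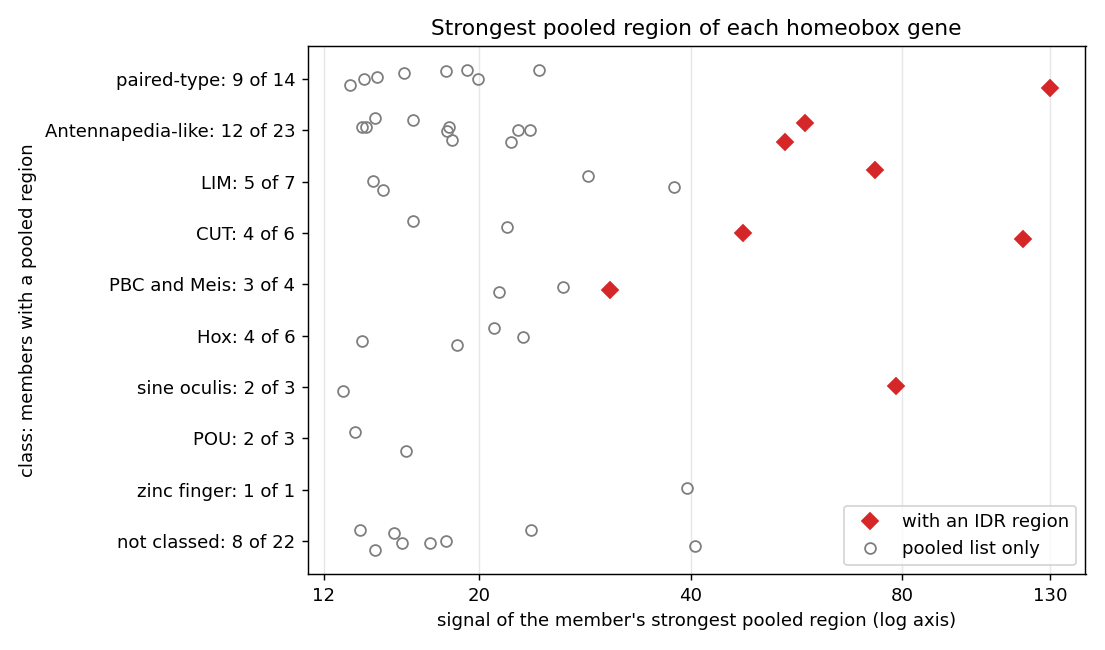
Signal (log axis) of the strongest pooled region of each homeobox gene that has one, by class, with the number of members that have a pooled region; diamonds are members with an IDR region and open circles members in the pooled list alone. The circles furthest right are ceh-89 (40.6), zag-1 (39.5) and lin-11 (37.8).

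IDR regions at homeobox genes lay both upstream and within the gene. Of 10, 7 had the summit inside the gene (70%, Wilson interval 39.7 to 89.2). The share was 38.5% of the 1804 IDR regions in windows of all protein-coding genes. That interval counts each region separately, though 3 of the 10 lay at unc-42. Member windows were also longer, with a median of 5339 bp against 4027 bp and the same 2000 bp upstream. Whether this bears on the share was not tested. Placed by the nearest annotated start, introns held 4, exons 2 and the first 200 bp of a transcript 1, that of ceh-27. The ceh-38 summit, counted there as exon, was also only 59 bp from the 5′ end of its gene. In the pooled list the shares were 62.5% of 96 regions (interval 52.5 to 71.5) and 60%. Some of the summits inside genes lay near internal starts: the strongest unc-42 and the ceh-38 summits were 790 and 34 bp upstream of an annotated start inside the gene.

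Summits of the replicates met at a minority of the pooled regions. Of the 96 pooled regions, 30 (31.2%) had a summit within 100 bp in both replicates, against 34.5% of the pooled list. A further 28 had one in replicate 1 alone, 28 in replicate 2 alone and 10 in neither. Of the 186 replicate 1 regions at members, 16.7% (interval 12 to 22.7) had a replicate 2 summit within 100 bp, against 22.3% of all replicate 1 regions. Of the 148 replicate 2 regions at members, 20.3% (interval 14.6 to 27.5) had a replicate 1 summit, against 23.1% of all replicate 2 regions. At the 30 regions found in both, the log2 ratio of replicate 1 to replicate 2 signal had a median of 0.02 and an SD of 0.76, against a median of -0.11 and an SD of 0.72 over 6685 regions. The ratios furthest from 0 at IDR regions were 1.83 at unc-42 (1247 bp into the gene) and -1.56 at ceh-39, followed by -0.93 at the strongest unc-42 region and -0.43 at ceh-5.

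**Figure D5:**
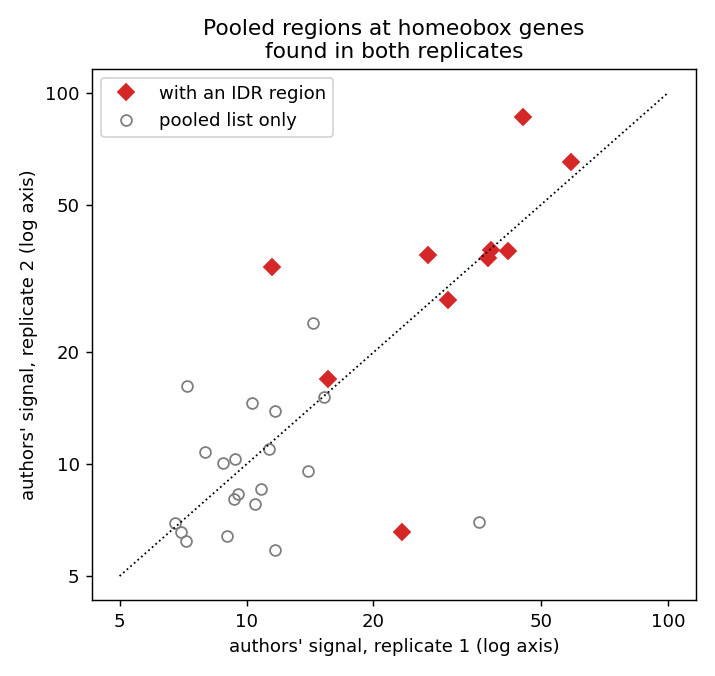
Authors' signal in replicate 1 (x axis) and replicate 2 (y axis), both log axes, at the 30 pooled regions of homeobox genes found in both replicates; diamonds have an IDR region, open circles do not, and the dotted line marks equal values. Most diamonds lie at the upper right near the line, and the 2 that stand off it furthest are ceh-39 (11.5 and 34) and unc-42 (23.4 and 6.57).

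Motif letters were counted on either strand within 100 bp of each summit. The forkhead consensus in its 4 forms (GTAAACA and GTAAATA and ATAAACA and ATAAATA, of which GTAAACA was also counted alone) was in 0 of the 10 member IDR windows (interval 0 to 27.8%), against 14% of all 2253 IDR windows. TAATTA, a core homeodomain site, and the GAGA repeat GAGAGAG were also in 0 of 10, against 3.55% and 20.1%. TGATAA was in 1 of 10, at the strongest unc-42 region printed above, against 7.19%. The list's share lay inside the interval of the 10 windows for each of them.

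The 96 pooled windows gave a larger count. TAATTA was in 16 of them (16.7%, interval 10.5 to 25.4), against 8.74% of all 19381 pooled windows and 8.63% of those in windows of protein-coding genes. The 16 lay at 14 members, among them the Hox genes lin-39 and egl-5, alr-1, ceh-43, lim-4 and unc-42. The G and C content was similar, 36.2% ± 9.07 (SD, 96 windows) against 36.9% ± 8.54 (19381 windows). Within 50 bp of the summit the shares were 5.21% and 4.30%, close to each other. In the wider window the share of all pooled regions lay below the members' interval. The forkhead forms were in 12.5% (interval 7.3 to 20.6) against 18.4%, TGATAA in 16.7% against 14% and GAGAGAG in 9.38% against 7.3%, each with the list's share inside the interval. GTAAACA, the narrow forkhead form, was in 1 window, at lim-4. A match is a description of letters, not of a site.

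A further pair of gene lists was set beside the members. Of 12 homeobox genes whose symbols fall outside the rule, such as pax-3, irx-1, unc-39 and pros-1, 1 had an IDR region (8.33%), namely zfh-2, with a signal of 94.1 at 1862 bp upstream. The share of the members, 8.99%, was inside its interval, 1.49 to 35.4. Of 11 genes for cofactors of homeodomain proteins and for chromatin regulators of Hox genes, 10 had one (90.9%, interval 62.3 to 98.4), against the 10.6% of all genes. The list holds 11 genes, was chosen with earlier results of these data known and was set beside the members without a test. Its share is therefore a description of these genes and no independent contrast with all genes.

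The strongest of these was at lin-59, an ASH1-type chromatin factor, with an IDR signal of 117 and replicate signals of 47.1 and 60.5. sor-3, a repressor of Hox genes, had 84.9, with 44.5 and 43.9 in replicates 1 and 2, and its partner in that role sor-1 had 61.9. ldb-1, the LIM domain-binding partner of LIM homeodomain proteins, had 2 regions, with signals of 59.4 and 53. The Groucho co-repressor gene unc-37 had 58.2 and egl-27, an MTA-type gene, 55.7. The genes of the Polycomb complex mes-6, mes-2 and mes-3 had 47.1, 42.9 and 41.8, and lin-49, a bromodomain gene, 41.7, close to the lowest value in the list, 41.5. sop-2 had none but had 3 pooled regions. The strongest regions of ldb-1 and egl-27 had no summit within 100 bp in replicate 2.

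Homeobox gene windows had a median of 5339 bp, against 6856 bp for these cofactors and regulators. IDR regions per Mb numbered 18.3 at homeobox genes, 22.1 over all protein-coding genes and 123 at the cofactors and regulators (interval 61.3 to 220). That last list was chosen with earlier results of these data known, so its density is no independent contrast. The strongest summit was upstream at 8 of these 10 genes, from 71 bp at mes-2 to 1942 bp at mes-3. Some of these regions are shared with neighbours: that of mes-3 with dyf-1, that of mes-6 with C09G4.4 and tag-77, and that of lin-49 with F42A9.8. With the 1126 strongest IDR regions alone, 6 of 89 homeobox genes (6.74%) and 4 of 11 cofactors and regulators had one, against 5.64% of all genes.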

How the data were processed

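The data were ChIP-seq region lists of 2 replicates of 1 group. Per the file headers and labels, the authors deposited regions in narrowPeak column order on ce11 and ce10. The deposited signal is the authors' enrichment over a control library. Aligner, peak caller and thresholds: not given in the sources used here. Lists on ce10 were not used.

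Regions were checked to end inside the chromosomes of WBcel235, the assembly that ce11 renames. Gene positions came from Ensembl release 115. Positions count from 1. Summits within 100 bp were taken as the same site. Promoter, intron and exon are relative to the member's own transcripts. In background counts a region was placed by its nearest start. Replicate lists shared 0 regions with the same position and signal. Region assignment was tested on simulated data. Shares carry 95% Wilson intervals and densities exact Poisson intervals, computed with Python 3.11.15, pandas 2.3.3 and scipy 1.17.1.

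With 1 group of 2 replicates, no test between conditions was possible and no p-values are given. The members, the further gene lists and the motifs were chosen with earlier results of these data known. Genes named are all members with an IDR region, the 6 Hox genes, the members with the most pooled regions, those with the largest replicate ratio, both construct genes and the further lists. The members just outside the IDR list and other single members were chosen after their values were seen. Alternatives changed the window, the assignment of regions, the list and the distance.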

Additional observations from a re-analysis of the deposited data

How the results depend on the processing

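The 8 members with an IDR region became 4 with promoter windows, both from 1000 bp upstream to 200 bp downstream and from 500 bp upstream to 100 bp downstream of a start. These 4 were ceh-27, ceh-38, ceh-39 and unc-42 under either window, while the background was 6.98% and 5.47% of all genes. Regions at members then numbered 6 and 5, and their density was 39.7 and 62.3 per Mb, against 41.8 and 62.1 over all genes. Under the other alternatives the count of members ran from 6 among the 1126 strongest IDR regions (6.74%, against 5.64% of all genes) to 10 with 5000 bp upstream (11.2%, against 15.7%). With the nearest start alone it was 8 (8.99%, against 7.62%), and the Wilson interval of 8 in 89, 4.63 to 16.7, holds that background share. Among the strongest regions the members' share was also slightly higher than that of all genes, and no interval was computed for it. With the strongest 2253 regions of 1 replicate alone it was 7 without replicate 1 (7.87%, against 10.5%) and 9 without replicate 2 (10.1%, against 10.1%). Regions at members then numbered 9 and 13, and their density was 16.5 and 23.9 per Mb, against 22 and 22.2. Without replicate 2, ceh-39 and unc-62 dropped out and lim-6, lin-11 and zag-1 came in. Members with a relaxed region numbered from 62 to 73 in the single replicates' whole lists. Density was not recomputed for assignment to the nearest start or by 1 bp of overlap.

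Cofactors and regulators were counted under alternatives chosen after seeing the data. They had 6 of 11 with the narrower promoter, against 5.47% of all genes, and 4 of 11 among the 1126 strongest regions, against 5.64%. Without replicate 1 and without replicate 2 they had 7 of 11 each, against 10.5% and 10.1% of all genes. The other homeobox genes had 0 of 12 with either promoter window, against 6.98% and 5.47% of all genes. A count of 0 in 12 is near these shares. Shared summits moved with the distance allowed. For replicate 1 regions at members they were 9.14% at 50 bp, 26.3% at 200 bp and 34.4% by 1 bp of overlap, against 13.7%, 31.1% and 40.8% of the whole list. For replicate 2 they were 10.8%, 34.5% and 46.6%, against 14.2%, 32.8% and 43%, so members passed from below the list to above it. With motif windows of 50 bp on either side, the IDR share of TGATAA was 0%, against 2.66%. The pooled shares were then 5.21% for TAATTA, 7.29% for TGATAA, 7.29% for the forkhead forms and 3.12% for GAGAGAG, against 4.3%, 6.94%, 9.63% and 3.93% of all pooled windows. GAGAGAG thus turned from above the list's share to below it, and the cause was not tested. No paired analysis was possible because the series has 1 group. Read depth is unknown, so the precision of a single signal cannot be given.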
